A study of Mus musculus with 6 samples.

Results

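The genes described here are 10 members of the YAP-TEAD pathway in primary mouse hepatocytes, namely the factors Yap1, Wwtr1 and Tead1, the feedback inhibitors Lats2 and Amotl2, and the targets Ctgf, Cyr61, Ankrd1, Axl and Gprc5a. They were taken by gene symbol from a table of 23282 genes, and all 10 were found, Ctgf and Cyr61 under these older names for Ccn2 and Ccn1. The members were chosen by their counts in the control and IL-1β samples, which were already known, so their values are given as a description and without a test. Hepatocytes from the livers of C57BL6/N mice were plated for 3 h, and RNA was sequenced from 3 samples without treatment (control) and 3 samples given recombinant IL-1β protein for 24 h. The design text speaks of 2 samples per group but names 3, and the table holds 3. The labels give no age or sex of the mice, no dose of IL-1β, and no statement on whether the samples came from separate animals or cultures, so the p-values below measure the spread between these samples, which may be technical. The labels also give no time in culture for the controls beyond plating, so whether it matched the 24 h of IL-1β is not known. A part of culture time in the differences below was not tested. No freshly isolated liver cells are among the samples, so how far culture itself induced these genes was not analysed here.

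YAP, encoded by Yap1, and TAZ, encoded by Wwtr1, are coactivators that cannot bind DNA themselves. They enter the nucleus when the Hippo kinases are inactive and switch on genes through the TEAD factors, which hold the DNA contact. In the liver the Hippo kinases restrain organ size and help to keep hepatocyte identity, and YAP is known to become active when hepatocytes are spread on a stiff culture surface.

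The measurement was QuantSeq, which reads the 3′ end of polyadenylated RNA, and the values are normalized counts scaled to library size (CPM) made from the deposited read counts. The libraries held between 9538741 and 11105408 counts. At an adjusted p below 0.05 in edgeR's quasi-likelihood test, 812 of 11657 genes tested were higher after IL-1β and 751 lower. With scaling by total counts alone, 39.6% of the called genes were higher, against 52.0% here. No pair of samples of a group agreed within sampling noise, as the chi-square of their counts over genes was at least 4.16 per degree of freedom.

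The 10 genes did not move together. Ankrd1 was about 2 times as high after IL-1β and Gprc5a was lower in every treated sample, while the factors and feedback inhibitors differed little. In 5 of the 10 the log2 fold change of IL-1β over control was above 0 and in 5 below, with a median of 0.09, against -0.0018 over all genes tested, and in 7 of the 10 it was within 0.5 of 0. All 10 passed the filter on low counts. In 4 of the 10, Wwtr1, Tead1, Ankrd1 and Gprc5a, no treated sample overlapped a control sample, where the same held for 28.2% of all genes tested (14% with IL-1β above and 14.2% with IL-1β below). The members were chosen with the same comparison in view, so nothing is read from this count.

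**Figure D1:**
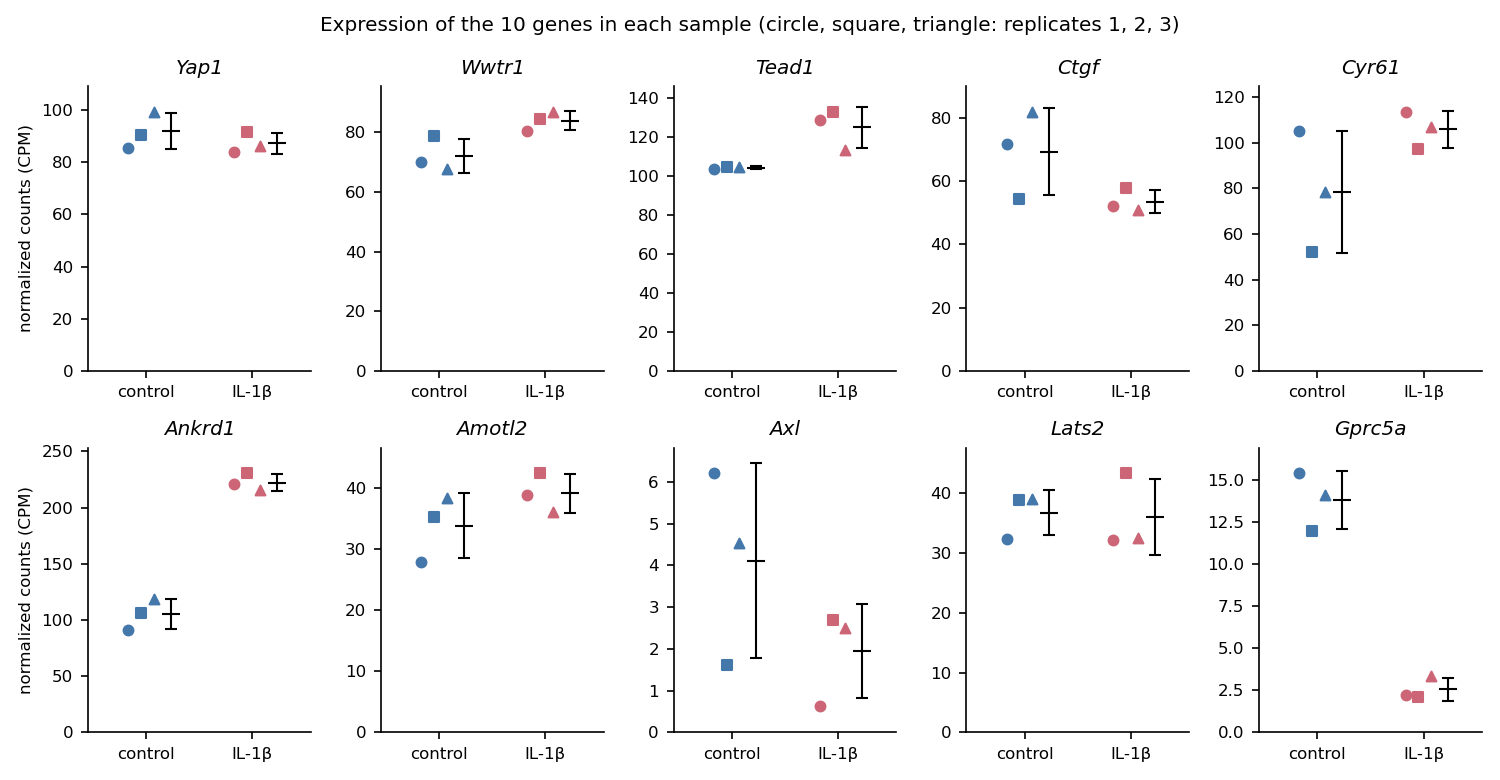
Normalized counts (CPM, vertical axes, each starting at 0) of the 10 genes in the 3 control (blue) and 3 IL-1β (red) samples, with replicates 1, 2 and 3 as circle, square and triangle, and the mean and SD (n = 3) as bars. Ankrd1 lay between 91.5 and 118 CPM in control and between 215 and 230 CPM after IL-1β, and Gprc5a between 12.0 and 15.4 CPM against 2.11 to 3.35 CPM.

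Among the factors, Yap1, a gene of chromosome 9 (GRCm38, 7932001 to 8004596, minus strand), was at 85.6, 90.6 and 99.2 CPM in the control samples and at 83.8, 91.6 and 86.4 CPM after IL-1β. The groups overlapped, and the log2 fold change was -0.07 (standard error 0.083). Wwtr1 lies on chromosome 3 from 57455644 to 57575910, on the minus strand. It was at 69.9, 78.7 and 67.7 CPM in control and at 80.5, 84.3 and 86.8 CPM after IL-1β, or 0.22 ± 0.086 (SE) as log2 fold change. The treated samples were all above the controls, by a gap between the nearest samples that was smaller than the spread within the controls.

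Tead1 encodes the TEAD factor with the most counts in these hepatocytes and lies on chromosome 7 from 112679320 to 112906805, on the plus strand. Its controls were close together, at 103, 105 and 105 CPM, and the IL-1β samples were at 128, 133 and 113 CPM. The log2 fold change was 0.26 (standard error 0.078), with IL-1β replicate 3 nearest the controls. Of its paralogs, Tead3 was at 2.49 ± 0.788 CPM (SD, n = 3) in control and 2.64 ± 0.483 CPM after IL-1β. Tead2 and Tead4 averaged at most 1.08 and 0.693 CPM in either group and had too few counts to be tested.

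Lats2 and Amotl2 encode inhibitors that the pathway itself switches on, which closes a feedback loop. Lats2, a kinase that phosphorylates YAP and TAZ, lies on chromosome 14 from 57689662 to 57746123, on the minus strand. It was at 32.4, 38.8 and 39.0 CPM in control and at 32.2, 43.3 and 32.5 CPM after IL-1β. The IL-1β values took in the whole range of the controls, and the log2 fold change of -0.03 (standard error 0.12) turned to between 0.01 and 0.05 when control replicate 2 or 3 or IL-1β replicate 1 or 3 was left out. Reads at the 3′ end of Lats2 also lie within Gm49361, an annotated gene on the same strand, and cannot be assigned to one of them. Amotl2, a junctional scaffold of the angiomotin family that holds YAP outside the nucleus, lies on chromosome 9 from 102717804 to 102733417, on the plus strand. It was at 28.0, 35.4 and 38.4 CPM in control and at 38.9, 42.5 and 36.2 CPM after IL-1β, or 0.21 ± 0.12 (SE) as log2 fold change. Its control replicate 1 was the lowest of the 6 samples, and without it the log2 fold change was 0.09.

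Ctgf and Cyr61 encode secreted matricellular proteins of the CCN family and are the targets most often used as readouts of YAP. Ctgf lies on chromosome 10 from 24595442 to 24598682, on the plus strand. It was at 71.7, 54.4 and 81.8 CPM in control and at 52.0, 57.8 and 50.8 CPM after IL-1β, or -0.37 ± 0.11 (SE) as log2 fold change. Control replicate 2 lay within the range of the treated samples, and without it the log2 fold change was -0.52, against -0.24 without control replicate 3.

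Cyr61 lies on chromosome 3 from 145646971 to 145649985, on the minus strand. It was at 105, 51.9 and 78.2 CPM in control and at 113, 97.2 and 107 CPM after IL-1β, or 0.43 ± 0.14 (SE) as log2 fold change. The controls varied by 2.02 times from the lowest to the highest, and control replicate 1 lay within the treated range. The log2 fold change was 0.70 without control replicate 1 and 0.21 without control replicate 2. So the 2 CCN genes differed from control in opposite directions on average, while for both the groups overlapped. The coefficient of variation of Cyr61 was 33.9% among controls, where counting error alone gives 3.48%, and 7.70% among treated samples. In DESeq2 the standard error of its log2 fold change was 0.29. Replicate 1 was its highest and replicate 2 its lowest sample in both groups. With replicate number as a block, its log2 fold change was 0.48 (standard error 0.0998).

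Ankrd1 encodes a nuclear ankyrin-repeat cofactor of muscle and stressed tissue and lies on chromosome 19 from 36111965 to 36119844, on the minus strand. Its values were 91.5, 106 and 118 CPM in control and 221, 230 and 215 CPM after IL-1β. The groups were well apart, and the group means differed by 2.11 times, or 1.08 ± 0.082 (SE) as log2 fold change. Omitting single samples gave values between 0.99 and 1.17.

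Axl encodes a receptor tyrosine kinase of the TAM family and lies on chromosome 7 from 25756500 to 25788733, on the minus strand. Its counts were low, with 66, 18 and 45 reads in the controls and 6, 28 and 27 after IL-1β, or 6.20, 1.61 and 4.53 CPM against 0.641, 2.69 and 2.51 CPM. Control replicate 2 was below 2 of the treated samples, so the groups overlapped. The log2 fold change was -1.05 (standard error 0.46), and omitting control replicate 1 gave -0.62 and omitting control replicate 2 gave -1.44.

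Gprc5a encodes an orphan G-protein-coupled receptor first known as a gene induced by retinoic acid and lies on chromosome 6 from 135065662 to 135084708, on the plus strand. It had 164, 134 and 140 reads in the controls and 21, 22 and 36 after IL-1β, or 15.4, 12.0 and 14.1 CPM against 2.25, 2.11 and 3.35 CPM. The highest treated sample was far below the lowest control, and the means differed by 5.39 times. The log2 fold change was -2.42 (standard error 0.24) and lay between -2.66 and -2.29 with each sample left out.

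The members also differed in which control sample was lowest. Control replicate 2 was the lowest control for 4 genes, Ctgf, Cyr61, Axl and Gprc5a. Control replicate 1 was the lowest for Yap1, Tead1, Ankrd1, Amotl2 and Lats2, and control replicate 3 for Wwtr1. Among the treated samples, replicate 2 was the highest for 7 genes, leaving out Wwtr1, Cyr61 and Gprc5a. The spread between controls was smallest for Tead1, with a coefficient of variation of 0.733%, and largest for Axl, with 56.5%.

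To see whether the genes share a feature at their starts, the core letters that TEAD factors read, GGAATG or their reverse complement CATTCC, were searched on both strands of RefSeq promoter windows of GRCm38.p6, from 250 bases before to 50 bases after the annotated start. Windows were matched for 7 of the 10 genes, and those of Tead1, Ctgf and Gprc5a were not. All 7 genes held the letters, in 8 of their 9 windows, the second Lats2 window being without. Of all 32851 windows, 14.7% held them. The members were picked as genes of this pathway, so the share is a description, and a match in letters is not a bound site. The AP-1 letters TGANTCA, the CArG box read by SRF and the NF-κB site were in 0 of the 9 windows, against 7.81%, 1.63% and 4.51% of all windows. With so few windows, nothing is read from these counts of 0, and motifs other than those searched were not examined.

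The 250 bases before the starts of Ankrd1 and Cyr61, the 2 targets with higher means after IL-1β, are shown 5′ to 3′ on the strand of the gene, with the TEAD core letters in capitals. The Ankrd1 stretch is chr19:36119845-36120094 and the Cyr61 stretch chr3:145649986-145650235, both on the minus strand.
Ankrd1: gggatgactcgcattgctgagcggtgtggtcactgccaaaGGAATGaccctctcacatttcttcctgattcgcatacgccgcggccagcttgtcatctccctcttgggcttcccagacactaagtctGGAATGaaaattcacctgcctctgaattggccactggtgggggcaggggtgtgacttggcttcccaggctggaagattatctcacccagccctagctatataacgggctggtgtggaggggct
Cyr61: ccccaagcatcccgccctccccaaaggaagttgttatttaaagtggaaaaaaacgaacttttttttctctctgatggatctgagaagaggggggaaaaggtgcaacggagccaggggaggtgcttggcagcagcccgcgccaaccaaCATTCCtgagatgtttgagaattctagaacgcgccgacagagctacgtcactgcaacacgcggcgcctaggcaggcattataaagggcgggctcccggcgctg

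Ankrd1 held the letters at 2 places, 210 and 123 bases before the start, and Cyr61 at 1, 103 bases before it. For the other 5 genes the letters are shown with 12 bases on each side, again in capitals and on the strand of the gene, since they show how the surroundings differ while the core is shared. They are chr9:8004720-8004749 for Yap1, chr3:57576029-57576058 for Wwtr1, chr9:102717727-102717756 for Amotl2, chr7:25788949-25788978 for Axl and chr14:57746102-57746131 for Lats2.
Yap1: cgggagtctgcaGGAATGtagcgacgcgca
Wwtr1: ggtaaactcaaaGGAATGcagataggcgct
Amotl2: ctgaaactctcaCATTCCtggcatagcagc
Axl: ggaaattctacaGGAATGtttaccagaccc
Lats2: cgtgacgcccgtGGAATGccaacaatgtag

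The letters lay 141 bases before the start in Yap1, 136 or 170 in Wwtr1 for its 2 annotated starts, 65 in Amotl2 and 233 in Axl, and in Lats2 they began at base 5 of the transcript. These positions hold for the RefSeq starts only. In GENCODE, another annotation, Ankrd1 reaches to 36120099, Lats2 to 57758388, and Amotl2 begins at 102716672. The matches of Ankrd1, Lats2 and Amotl2 therefore lie inside those longer gene models. Genes with the same letters had different values, from Ankrd1 at a log2 fold change of 1.08 to Axl at -1.05. Among 16 other YAP/TAZ-TEAD targets, described below, 2 of the 10 with a window held the letters.

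**Figure D2:**
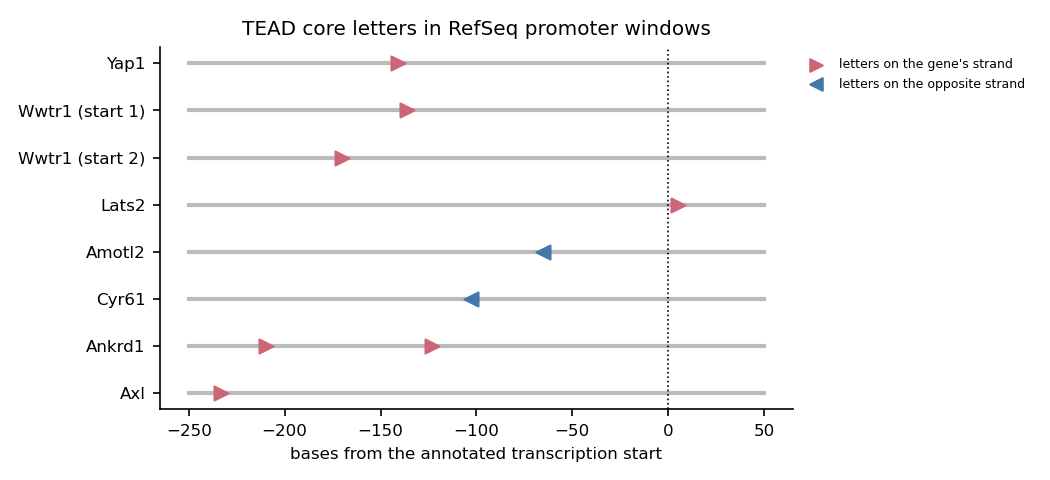
Positions of the TEAD core letters (triangles, red on the strand of the gene and blue on the opposite strand) in promoter windows (grey lines) of 7 of the 10 genes, in bases from the annotated start (dotted line, horizontal axis). Ankrd1 holds 2 matches, at 210 and 123 bases before the start, and the Lats2 match begins 5 bases into the transcript. The second Lats2 window, which holds no match, is not drawn.

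Upstream of YAP and TAZ, the Hippo kinases and the scaffolds around them were called at about the share of all genes tested. Of 22 such regulators 21 were tested, and 2 were higher and 1 lower at an adjusted p below 0.05, or 14.3% called. Of all genes tested 13.4% were called (6.97% higher and 6.44% lower). The median log2 fold change of the regulators was 0.02, and 6 had an unadjusted p below 0.05 in edgeR. Ptpn14, a phosphatase that binds YAP, rose from 24.5 ± 3.28 to 44.5 ± 5.41 CPM (mean ± SD of 3 samples each), or 0.86 ± 0.12 (SE) as log2 fold change (edgeR adjusted p = 1.2e-05). Ajuba, a LIM protein that holds back the LATS kinases, fell from 73.3 ± 9.67 to 48.0 ± 3.26 CPM, or -0.61 as log2 fold change (edgeR adjusted p = 8.7e-05). Sav1, the scaffold of the MST kinases, rose by 0.50 on the log2 scale (edgeR adjusted p = 0.029), a call lost with total-count scaling (0.0532) and in 4 of the fits that left out 1 sample (up to 0.173).

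Of the core kinases, Stk3 and Stk4, which encode MST2 and MST1, had log2 fold changes of 0.29 and 0.15 with adjusted p of 0.181 and 0.281 in edgeR, and Lats1 had 0.17 (0.325). Nf2, the membrane protein merlin that activates the kinases, had -0.13 (0.632 in edgeR). Of the angiomotins beside Amotl2, Amot had -0.10 (0.829 in edgeR) and Amotl1 -0.61 (0.0802). Amotl1 passed 0.05 with total-count scaling (0.0488) and without control replicate 1 (0.0294). Of the TEAD paralogs and VGLL cofactors, which compete with YAP for TEAD, 2 of 7 were tested and 0 called in edgeR, also at an unadjusted p below 0.05, and 0 in DESeq2. Vgll4 had -0.04 ± 0.19 (SE) as log2 fold change.

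The other YAP/TAZ-TEAD targets, a list of 16 genes, were split. Of the 11 tested, 2 were higher and 2 lower, with a median log2 fold change of 0.06, against 13.4% called among all genes. Ptpn14, which also belongs here, and Tgfb2, a TGF-β ligand that rose from 18.7 ± 3.21 to 30.8 ± 5.01 CPM (mean ± SD of 3 samples each), were the 2 higher ones, Tgfb2 with a log2 fold change of 0.72 (edgeR adjusted p = 9.5e-04). Myof, a membrane repair protein, fell from an average of 16.2 to 8.76 CPM, by 0.88 on the log2 scale (standard error 0.18, edgeR adjusted p = 0.0010). Nt5e, the ectonucleotidase CD73, had 3.26 ± 1.25 CPM in control and 1.20 ± 0.364 CPM after IL-1β, or -1.43 as log2 fold change (edgeR adjusted p = 0.027). The call of Nt5e was lost in 4 of the fits that left out 1 sample, with an adjusted p of up to 0.20. The 5 targets not tested had a mean below 1 CPM in both groups.

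Actin and its regulation feed the pathway, and SRF drives genes that YAP also uses. Of 21 actin and SRF target genes, 18 were tested, 6 were higher and 3 lower, against 6.97% higher and 6.44% lower among all genes tested, with a median log2 fold change of 0.09. Srf itself rose from an average of 47.3 to 73.9 CPM, by 0.64 on the log2 scale (standard error 0.096, edgeR adjusted p = 2.0e-05), and Vcl, which encodes the adhesion protein vinculin, by 0.51 (2.1e-05). Vim, the intermediate filament protein vimentin, fell from 190 ± 17.7 to 84.7 ± 6.80 CPM (mean ± SD of 3 samples each), or -1.16 as log2 fold change (edgeR adjusted p = 7.2e-11).

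Relatives of the members by family were read beside them. Of 13 such genes, 6 had enough counts, 2 of them higher and 3 lower, where 13.4% of all genes tested were called. With single samples left out, between 2 and 4 were called, with 2 when control replicate 2 or either of IL-1β replicates 1 and 2 was absent, and 3 when IL-1β replicate 3 was. For the TAM receptor Axl, the ligand Gas6 rose from 114 ± 4.66 to 145 ± 6.42 CPM (mean ± SD of 3 samples each), or 0.34 as log2 fold change (edgeR adjusted p = 0.0018), and the second ligand Pros1 had -0.29 (0.037). The sister receptor Tyro3 went from 6.72 ± 1.69 to 10.7 ± 0.228 CPM, or 0.68 as log2 fold change (edgeR adjusted p = 0.037), and Mertk averaged at most 0.192 CPM in either group. The calls of Pros1 and Tyro3 were lost in 5 fits each that left out 1 sample, the adjusted p reaching 0.192 and 0.143, and that of Tyro3 also with total-count scaling (0.0558). Gprc5c, a paralog of Gprc5a, fell from 33.9 ± 2.31 to 21.4 ± 3.60 CPM, or -0.67 as log2 fold change (edgeR adjusted p = 6.0e-04), while Gprc5b had at most 0.751 CPM in either group. Ankrd23, of the ankyrin-repeat family of Ankrd1, had -0.45 as log2 fold change (edgeR adjusted p = 0.015, up to 0.114 in 3 fits that left out 1 sample).

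Gprc5a is known as a retinoic acid gene, so genes of that pathway were read beside it. Of 14 genes of retinoic acid supply and response, 10 were tested, 1 was higher, 3 were lower and 6 were not called. The median log2 fold change of the tested genes was -0.44, where 13.4% of all genes tested were called. Without IL-1β replicate 3, 2 were called. Aldh1a1, which makes retinoic acid from retinal, fell from 115 ± 10.7 to 22.6 ± 2.05 CPM (mean ± SD of 3 samples each), or -2.34 as log2 fold change (edgeR adjusted p = 5.1e-15). Cyp26a1, which degrades retinoic acid, fell from 4.67 ± 1.15 to 1.15 ± 0.357 CPM, or -2.02 as log2 fold change (edgeR adjusted p = 5.9e-04). Rara, a retinoic acid receptor, had -0.47 (adjusted p = 0.031 from edgeR, up to 0.155 in 4 fits that left out 1 sample). Dhrs3, which turns retinal back to retinol, rose from 10.8 ± 3.08 to 20.7 ± 5.80 CPM, or 0.94 as log2 fold change (edgeR adjusted p = 0.0018), with an adjusted p of 0.0537 without IL-1β replicate 3.

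**Figure D3:**
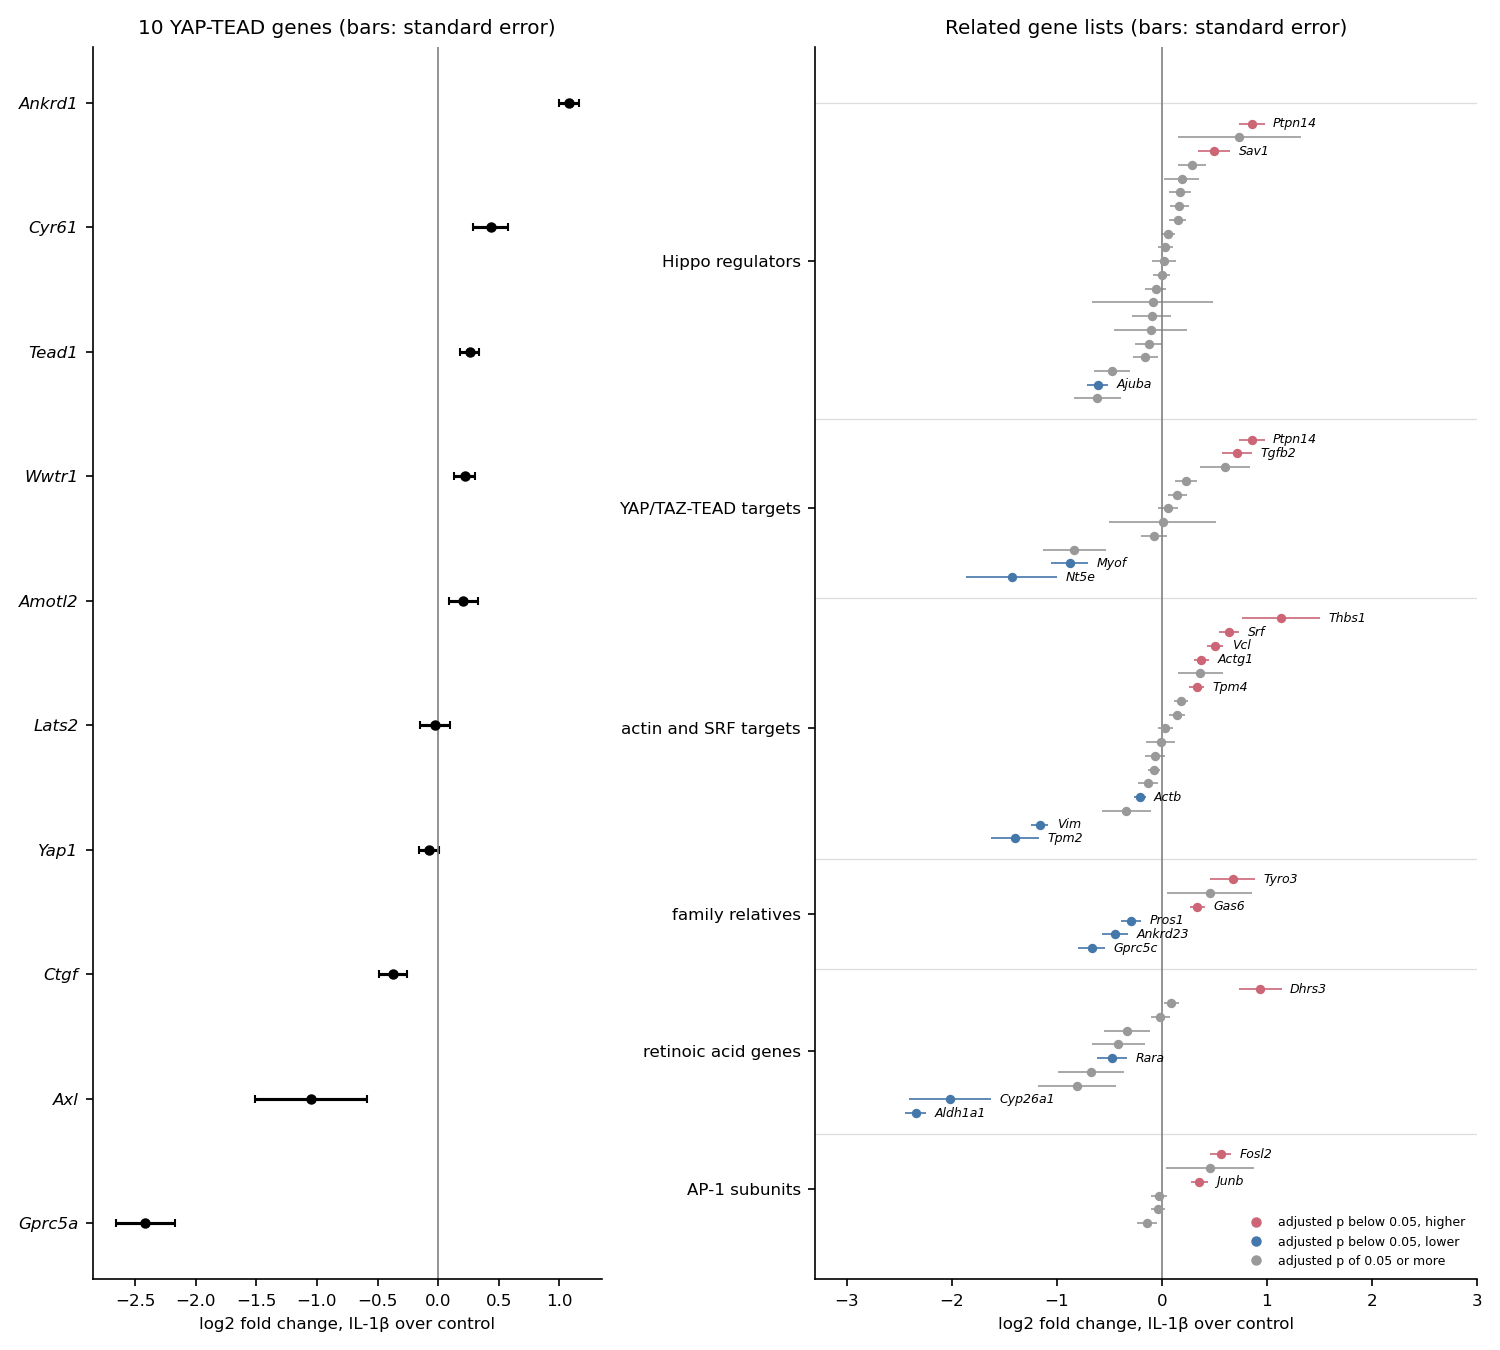
Log2 fold changes of IL-1β over control (horizontal axes) with standard errors (bars). The 10 genes are in black, and no test result is given for them. The tested genes of 6 related lists are also drawn, except 1 of the actin and SRF list. These are in red where higher and in blue where lower at an adjusted p below 0.05, and in grey otherwise. The 10 genes ran from Gprc5a at -2.42 to Ankrd1 at 1.08, and Aldh1a1 at -2.34 was the lowest of the genes drawn from the lists.

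Several of these genes are also active in other liver cells, so markers of those cells were read beside them. Hepatocyte markers summed to between 26728 and 27322 CPM in control and between 22621 and 24333 CPM after IL-1β, with Alb, Fgb and Apoa1 the most abundant. Of 11 tested, 9 were lower and 0 higher, where 6.44% of all genes tested were lower, and between 6 (without IL-1β replicate 1) and 9 were lower with single samples left out. The urea cycle enzymes Cps1 and Ass1, also hepatocyte markers, averaged at most 2.65 and 0.717 CPM in either group, which is low for cells labelled as hepatocytes. In bulk RNA, fewer cells of a type and less RNA per cell cannot be told apart.

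The 12 stellate cell markers summed to between 21.6 and 24.2 CPM in control and between 22.9 and 28.5 CPM after IL-1β, most of it Dcn, which had 161 to 226 reads per library, or 18.4 CPM on average in control and 20.3 CPM after IL-1β. Of the 12, 7 averaged under 1 CPM in both groups, among them Lrat, Des, Pdgfrb and Ngfr. IL-1β replicate 3 stood above the other samples in Col1a1, with 36 reads (3.35 CPM), and in Pdgfrb, with 13 reads (1.21 CPM). Of the 3 stellate markers tested, 0 were called in edgeR, also at an unadjusted p below 0.05, and 0 in DESeq2. The 5 mesothelial markers stayed at or below 0.279 CPM in sum, with Msln, Upk3b and Wt1 at 0 counts. The part of these cells in the values of Ctgf and Cyr61 was not tested.

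Endothelial markers summed to between 85.8 and 97.4 CPM in control and between 81.8 and 89.2 CPM after IL-1β, with Eng, Lyve1 and Cdh5 the most abundant. Of 9 tested, 1 was higher and 3 lower, where 13.4% of all genes tested were called, and 2 were called without control replicate 3, IL-1β replicate 2 or IL-1β replicate 3. The 3 lower ones were Clec4g (5.80 CPM on average in control and 0.765 CPM after IL-1β), Kdr (4.55 and 1.62 CPM) and Ptprb (7.87 and 4.08 CPM). Their log2 fold changes were -2.87, -1.49 and -0.95 (edgeR adjusted p = 1.9e-05, 0.0051 and 0.014). The higher one, Lyve1, was not called with total-count scaling (edgeR adjusted p = 0.0507) and in 4 of the fits that left out 1 sample (up to 0.137). Macrophage markers, mostly Cd68 with Cd5l and Marco behind it, summed to between 213 and 240 CPM and between 215 and 245 CPM. Cd68 alone averaged 192 CPM in control and 184 CPM after IL-1β. Timd4 and Vsig4 averaged under 1 CPM in both groups, and Adgre1 and Clec4f at most 1.33 and 1.17 CPM in either group. Of 8 tested, 0 were called in edgeR and 0 in DESeq2, while 2 had an unadjusted p below 0.05 in edgeR and 1 was called without control replicate 1. Cholangiocyte markers summed to between 361 and 384 CPM in control and between 252 and 254 CPM after IL-1β, with 2 of 4 tested lower, Spp1 and Cldn4, where 6.44% of all genes tested were lower. Sox9 averaged 134 CPM in control and 155 CPM after IL-1β (edgeR adjusted p = 0.052), and it was called higher in DESeq2 (0.0414), with a minimum of 10 counts per sample (0.0447), with the replicate block (0.0401) and without control replicate 1 (0.0473). Epcam, Krt7, Krt19 and Cftr averaged under 1 CPM in both groups. Cldn4 was 46.8 ± 5.23 CPM in control and 9.57 ± 0.463 CPM after IL-1β (SD, n = 3 per group). The part of cholangiocytes in the values of Gprc5a was not tested.

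**Figure D4:**
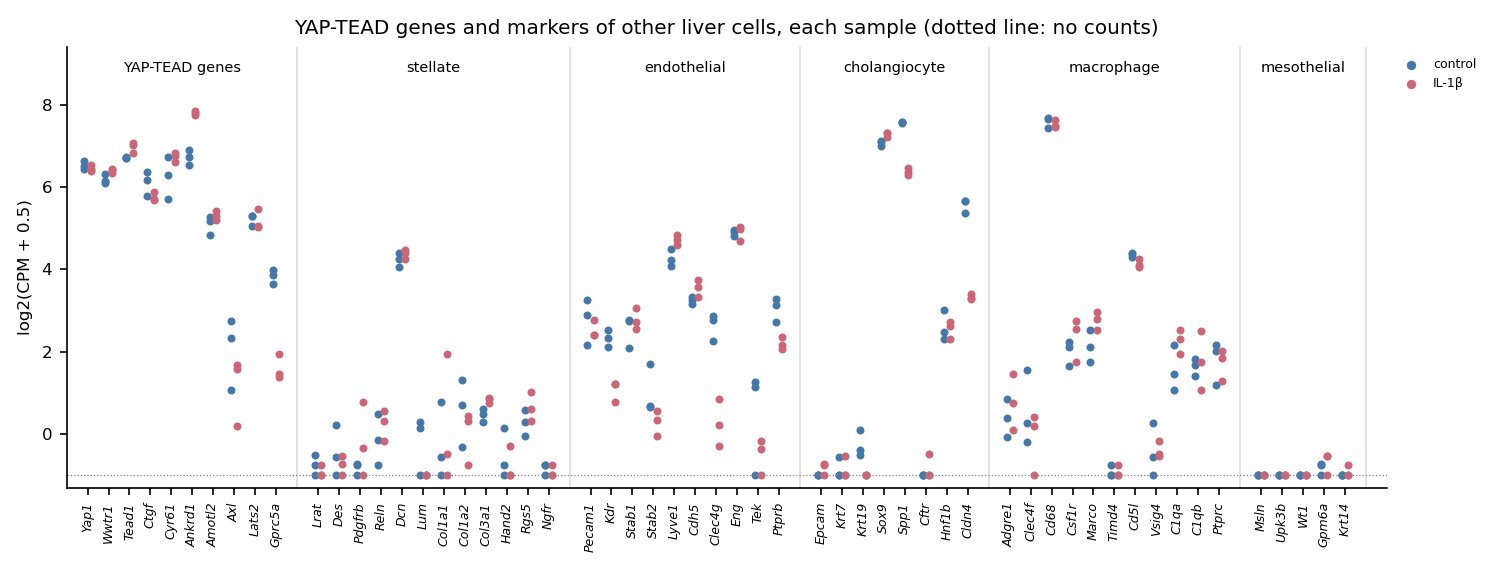
Levels on a log2(CPM + 0.5) scale (vertical axis) of the 10 genes and of the markers of 5 other liver cell types in each control (blue) and IL-1β (red) sample, with the level of no counts as a dotted line. All 10 genes have counts in each sample, while Lrat, Des, Ngfr, Epcam, Krt7 and the mesothelial markers lie at or near the dotted line and Dcn lies between 16.2 and 21.7 CPM.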

How the data were processed

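QuantSeq 3′ libraries from 3 control and 3 IL-1β hepatocyte samples were sequenced by the authors as 75-nt single-end reads, and the submitters' processing notes name Bowtie2, edgeR and the mm10 build (GRCm38). How reads with several matches and the strand were counted is not given in the sources used here. The deposited table holds raw counts per gene, which were used, and the authors' log2 normalized values, their log2 group averages, and their ratio (fold change) and p-value columns, which were not used.

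Counts were fitted with edgeR 4.0.16 in R 4.3.3 (filterByExpr, TMM, quasi-likelihood F test, two-sided) without covariates, p-values being adjusted by Benjamini-Hochberg across 11657 genes that passed, at a threshold of 0.05. Standard errors were computed from each fitted log2 fold change and its quasi-likelihood F statistic, which borrows its variance in part from other genes. They can therefore be smaller than a gene's own 3 samples would give, as for Cyr61 (0.14, against 0.29 in DESeq2). CPM used TMM library sizes. A count of 3 equals 0.270 to 0.315 CPM, which covers counting error only. The fit was repeated in DESeq2 1.42.0, with scaling by total counts or by upper quartile, without the filter or with a minimum of 10 counts per sample, with replicate number as a block, and omitting single samples. The fitting was tested on simulated data.

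The members and all lists were chosen with earlier results of these data known. Named list genes are at most 4 per list with the smallest adjusted p below 0.05, fixed paralogs and partners, the 3 most abundant markers of each cell type, and the 3 genes nearest in profile to Gprc5a, Ctgf, Cyr61 and Ankrd1. Cps1, Ass1, Col1a1, Clec4g, Kdr, Ptprb, Adgre1, Clec4f, the markers near 0 counts and Gm49361 were named after their values were seen. For 1 gene of the actin and SRF list and 1 gene near Ankrd1, values are not reported here.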

Additional observations from a re-analysis of the deposited data

How the results depend on the processing

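The number of genes called was 1563, and it was 1496 in DESeq2, 1619 with upper-quartile scaling, 1670 with total-count scaling, 1728 with no filter on low counts, 1488 with a minimum of 10 counts per sample and between 1131 and 1596 with single samples left out. With the replicate number as a block it was 1671. Over all genes tested, the deviations of same-numbered samples were hardly correlated (0.0616, 0.00793 and 0.0038), so the numbers were not taken as pairs. Cyr61 did have the same order in both groups, highest in replicate 1 and lowest in replicate 2. With the block, 2 Hippo regulators were lower in place of 1. With total-count scaling, which moved the median of all genes to -0.06, 1 Hippo regulator was higher and 3 lower, and 1 family relative was higher. With no filter 2 Hippo regulators were lower, and with at least 10 counts in every sample 1 YAP/TAZ-TEAD target was lower. With single samples left out, 1 to 2 Hippo regulators were higher and 1 to 3 lower, 1 to 2 targets lower, 2 to 4 family relatives called (1 to 2 higher, 1 to 3 lower), and 2 to 4 retinoic acid genes called (0 to 1 higher). The cause was not tested.

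The median of the 10 genes ranged from -0.012 to 0.14 with single samples left out, and Lats2 was the member whose sign turned. Axl could not be fitted with at least 10 counts in every sample. Among genes not called, signs also turned for Eng (-0.013 with upper-quartile and -0.039 with total-count scaling, and -0.048 to 0.12 with single samples left out), Fgb (-0.11 to 0.017), Tead3 (-0.088 to 0.36), Vgll4 (-0.19 to 0.052) and Amot (-0.19 to 0.066). Among the members, Axl had the fewest reads in sum over the 6 libraries, from 6 to 66 per library.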

Other observations

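AP-1 factors bind DNA beside TEAD at many enhancers, and 2 of the 6 subunits tested were higher after IL-1β and 0 lower, where 6.97% of all genes tested were higher, with a median log2 fold change of 0.16. Fosl2 rose from 33.7 ± 1.96 to 49.7 ± 2.59 CPM (mean ± SD of 3 samples each), or 0.56 as log2 fold change (edgeR adjusted p = 2.7e-04). Junb rose from 141 ± 6.41 to 181 ± 20.7 CPM, or 0.36 as log2 fold change (edgeR adjusted p = 0.0025).

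Genes with a profile over the 6 samples nearest to that of a member were sought among 7980 genes with a mean of at least 10 CPM, by the root-mean-square distance of centred log2(CPM + 0.5) values, as a description. For Gprc5a they were Aldh1a1 (distance 0.116), Sprr1a (0.196), which went from 1043 to 239 CPM, and Cldn4 (0.209). For Ankrd1 they included Mat1a (0.0536) and Saa2 (0.0690), an acute-phase gene that went from 1943 to 4014 CPM. For Cyr61 they were Spcs3 (0.0695), Acvr1 (0.0959) and Nfkb1 (0.101), each lowest in control replicate 2. For Ctgf they were Mtg1 (0.0788), Tsc22d1 (0.0819) and Heatr5a (0.0958), also with control replicate 2 the lowest control. These genes were picked for a profile like that of the member, so nothing is read from the shared low sample.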
